A study of Mus musculus with 35 samples.

Results

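Mouse leukemia cells that expressed the NUP98-DDX10 fusion were set against control libraries by RNA sequencing of sorted bone marrow cells. The comparison took 7 of the 33 RNA libraries of the series (35 samples in all). These were the 4 NUP98-DDX10 libraries made without doxycycline and the 3 libraries titled as controls. They were picked by their labels, but the comparison was chosen with earlier results of these data known. All mice were C57BL/6 transplant recipients, and marrow was sorted on GFP with the CD45.2 antigen. The leukemia cells carry a NUP98-DDX10 transgene that the labels call regulatable, and other groups of the series had doxycycline at 4 mg/ml for 3 or 5 days. Of the 4 untreated libraries, 1 is titled day 3 and 3 are titled day 5, and they were taken as 1 group. The labels of the control libraries list several fusion genes (NUP98/NSD1 and NUP98/JARID1A in each, with NUP98/DDX40, NUP98/DDX41 or NUP98/DDX42) and no treatment, so what the controls carry is not known from the labels. Animals and primary leukemias are not numbered, so each p-value rests on the spread between libraries alone, which may be technical. Per the series title, the study concerns the cell cycle kinase gene Cdk6 as a direct target of such fusions in acute myeloid leukemia.

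NUP98 is a nuclear pore protein, and leukemia fusions keep its repeat-rich start and join it to part of a partner, here the RNA helicase DDX10. Cells with NUP98 fusions are known for high activity of the Hoxa cluster, whose homeobox transcription factors act with the cofactors MEIS1 and PBX. In normal marrow these genes are active in stem and progenitor cells and are turned down as cells mature. Granulocytes fill primary granules early, at the promyelocyte stage, and secondary and tertiary granules later, under C/EBP transcription factors. CDK6 and CDK4 pair with D cyclins and phosphorylate RB, which frees E2F factors to open the S phase.

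The 250 bases before a transcript start of 6 genes are shown, since these genes are described below. Hoxa9, Hoxa10 and Meis1 were higher in the leukemia libraries, and the secondary granule genes Ltf, Camp and Ngp were lower. The Meis1 window lies inside the annotated gene (18880428 to 19019651), before a start that is not its outermost. No expression result uses these windows. Sequences are from RefSeq's promoter table, build GRCm38.p6, written in the direction of the gene from 5′ to 3′. Capitals mark matches to TTGCNNAA or its reverse complement TTNNGCAA, a pattern of the C/EBP type.
Hoxa9, chr6:52227371-52227620, minus strand: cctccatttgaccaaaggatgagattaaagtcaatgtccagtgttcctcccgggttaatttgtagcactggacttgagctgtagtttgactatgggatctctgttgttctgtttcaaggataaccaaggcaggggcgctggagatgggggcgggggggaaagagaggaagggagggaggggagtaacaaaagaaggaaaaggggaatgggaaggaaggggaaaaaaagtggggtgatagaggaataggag
Hoxa10, chr6:52240855-52241104, minus strand: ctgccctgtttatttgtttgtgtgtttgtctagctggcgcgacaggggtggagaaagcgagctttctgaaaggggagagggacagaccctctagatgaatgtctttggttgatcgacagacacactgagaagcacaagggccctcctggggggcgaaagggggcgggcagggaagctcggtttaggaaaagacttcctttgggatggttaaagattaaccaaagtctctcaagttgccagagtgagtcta
Meis1, chr11:19018970-19019219, minus strand: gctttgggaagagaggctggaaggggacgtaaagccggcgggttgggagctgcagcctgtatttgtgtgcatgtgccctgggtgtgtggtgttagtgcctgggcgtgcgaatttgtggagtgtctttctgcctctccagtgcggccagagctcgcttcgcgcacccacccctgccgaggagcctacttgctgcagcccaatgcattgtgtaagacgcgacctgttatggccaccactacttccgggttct
Ltf, chr9:111019042-111019291, plus strand: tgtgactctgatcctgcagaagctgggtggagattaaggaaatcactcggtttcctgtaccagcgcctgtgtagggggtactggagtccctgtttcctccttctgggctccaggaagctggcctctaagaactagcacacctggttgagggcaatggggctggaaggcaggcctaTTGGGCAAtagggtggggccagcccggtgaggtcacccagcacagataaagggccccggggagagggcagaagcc
Camp, chr9:109849457-109849706, minus strand: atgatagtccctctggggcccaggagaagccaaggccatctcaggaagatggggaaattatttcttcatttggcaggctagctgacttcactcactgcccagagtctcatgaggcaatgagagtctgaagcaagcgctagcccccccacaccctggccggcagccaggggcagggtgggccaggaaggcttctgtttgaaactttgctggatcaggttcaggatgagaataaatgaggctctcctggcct
Ngp, chr9:110419558-110419807, plus strand: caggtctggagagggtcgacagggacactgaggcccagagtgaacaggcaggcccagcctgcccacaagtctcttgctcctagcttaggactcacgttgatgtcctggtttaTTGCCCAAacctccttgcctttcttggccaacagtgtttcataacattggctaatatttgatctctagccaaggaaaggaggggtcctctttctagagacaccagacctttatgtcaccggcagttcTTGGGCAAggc
One match lay 75 bases before the Ltf start, and matches lay 138 and 11 bases before the Ngp start, while the Camp window held none. The pattern was in 2583 of 27025 promoters of the same length (9.56%) and in 9 of the 30 matched promoters of the neutrophil list described below (30.0%). A Hox and TALE type pattern, TGATTNAT or its reverse complement ATNAATCA, was in 806 of the 27025 promoters (2.98%) and in 1 of the 17 matched promoters of the Hox, Meis and Pbx list (5.88%). The Hoxa9, Hoxa10 and Meis1 windows held no match to either pattern. These matches describe letters in a window and not sites that a factor binds.

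The fusion transcript set the groups apart. NUP98-DDX10 had 13960, 14120, 12720 and 9003 normalized counts in the untreated leukemia libraries and 0 in each control library. With the floor of 3 reads per library that a count of 0 allows, it was at least 3360-fold higher in the leukemia libraries (mean 12450 ± 2381, SD, n = 4). The marker eGFP had 14450, 11060, 9082 and 7445 normalized counts in the leukemia libraries, against 13.9, 210 and 14.3 in controls 1, 2 and 3. It was higher by 8.13 on the log2(value + 1) scale (SE 0.88, limma adjusted p = 0.000185), and by 7.49, 9.40 and 7.51 without control 1, 2 or 3 in turn. All groups are labelled as sorted on GFP, but eGFP was low in all 3 controls. Luciferase had 1774, 1596, 1242 and 1398 normalized counts in the leukemia libraries, against 473, 9.14 and 9.09 in the controls (log2 difference 5.35, SE 1.25, limma adjusted p = 0.00725). Without control 1, the highest control, the luciferase difference was 7.20, and without control 2 or 3 it was 4.43. A NUP98-JARID1A construct had 2, 63 and 14 reads in controls 1, 2 and 3 and 0 in the leukemia libraries, and a NUP98-HOXA9 construct had 7, 2, 5 and 6 reads in the leukemia libraries and 0 in the controls.

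Total reads ran from 12533544 to 15573499 in the leukemia libraries and from 12043519 to 17514179 in the controls. The leukemia libraries correlated with each other across genes at 0.989 to 0.993 (Pearson's r on the log2 scale, where genes are not independent replicates). Controls 1 and 2 correlated at 0.989, but control 3 correlated with them at 0.897 and 0.902. Control 3 was at least 4-fold away from the mean of controls 1 and 2 in 1007 genes, while controls 1 and 2 were that far apart in 27. Its highest genes against the other controls were red cell and B cell genes such as Slc4a1, Ank1, Ermap, Rhd, Cr2 and H2-DMb2, and its lowest were neutrophil genes such as Retnlg, Cxcr2, Mmp8 and Fpr1, with Cd34. Leukemia libraries correlated with controls 1, 2 and 3 at 0.781 to 0.795, 0.772 to 0.784 and 0.721 to 0.727. Results that rest on control 3 are therefore given with and without it. Ptprc, which encodes the sorted antigen CD45, was present in every library, with 4949, 5262, 5801 and 5405 normalized counts in the leukemia libraries and 31020, 27690 and 24240 in the controls.

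Of 12068 genes tested, 3145 were higher in the untreated leukemia libraries (26.1%) and 3997 were lower (33.1%), together 59.2% (limma, Benjamini-Hochberg adjusted p under 0.05). The 7 libraries did not overlap, with all leukemia values above or all below the controls, in 27.1% and 34.1% of genes. At least 2-fold changes were called in 12.6% and 21.3% of genes. The median log2 difference over all genes was -0.10. With quantile normalization the median was 0.16 and the split turned to 4215 higher and 3011 lower, so that 58.3% of calls were higher in place of 44.0%. Without control 3, 4096 genes were higher (33.9%) and 4907 lower (40.7%), and these held 3134 of the 3145 higher calls and 3948 of the 3997 lower calls. Every list below has to be read against these shares, since most genes were called. List members were chosen with earlier results of these data known.

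**Figure D1:**
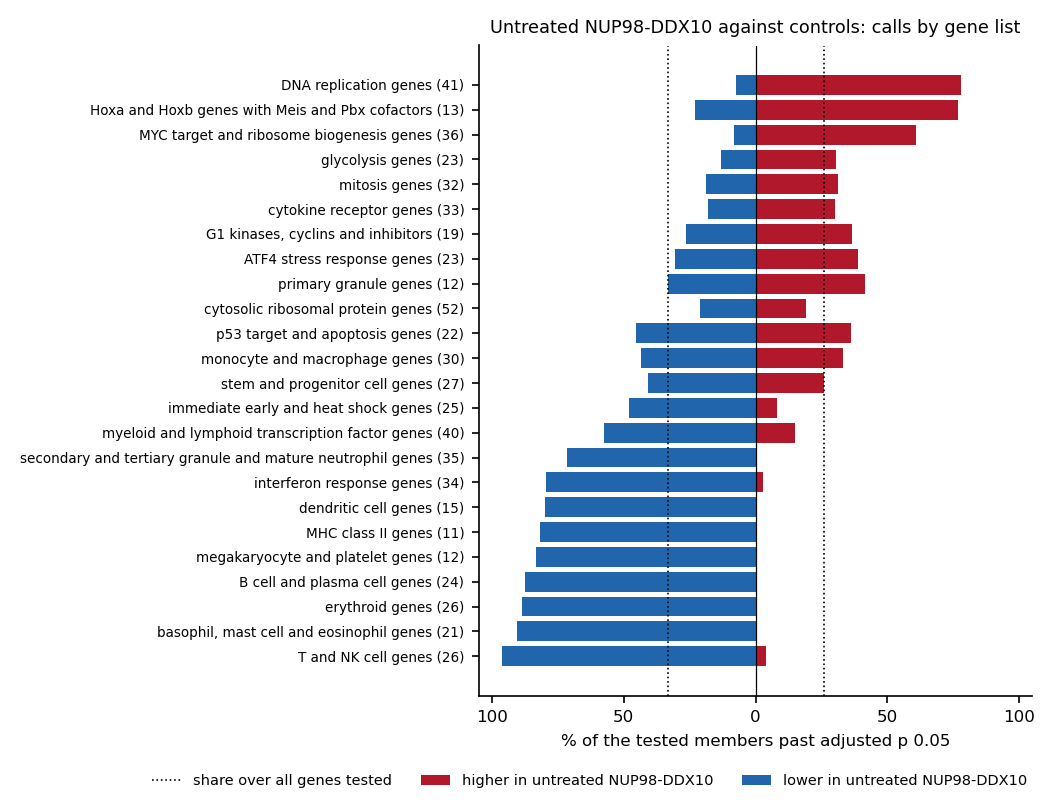
Share of the tested members of each gene list shown (number tested in parentheses) that were higher (red, to the right) or lower (blue, to the left) in untreated NUP98-DDX10 leukemia than in controls at limma adjusted p under 0.05, n = 4 and 3. The lists of fusion part genes, sex-linked genes, and endothelial and stromal genes are not drawn. Dotted lines mark the shares over all 12068 genes, 26.1% higher and 33.1% lower; the DNA replication and Hox lists reach furthest to the right and the lymphoid, erythroid and basophil lists furthest to the left.

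The Hoxa cluster and Meis1 were among the highest differences. The Hox, Meis and Pbx list has 28 genes, of which 13 passed the filter of at least 10 normalized counts in at least 3 libraries. Of these 13, 10 rose and 3 fell, with a median log2 difference of 4.67. Since 3 of the 13 passed only through the leukemia libraries and 2 only through the controls, this count is a description. Without control 3 and with quantile normalization the counts were also 10 and 3.

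Hoxa10 (Entrez 15395, chromosome 6, 52231197 to 52240854, GRCm38) had 1080, 993, 903 and 908 normalized counts in the leukemia libraries, against 2.53, 1.14 and 2.60 in controls 1, 2 and 3. The groups lay far apart with little spread inside either, and the log2 difference was 8.33 (SE 0.24, limma adjusted p = 1.85e-06). Hoxa9, the Hoxa gene best known for transforming marrow progenitors, had 1808, 1521, 1483 and 1512 in the leukemia libraries, against 16.4, 32.0 and 0 in the controls. Control 3 held no Hoxa9 read, which widened the spread of the difference (7.57, SE 1.05, limma adjusted p = 0.000586), and the difference was 8.10, 8.56 and 6.04 without control 1, 2 or 3. Hoxa7 had 852, 680, 605 and 607 in the leukemia libraries, against 21.5, 21.7 and 7.79 in the controls (5.37, SE 0.35, limma adjusted p = 2.31e-05). Hoxa5 had 325, 368, 442 and 345 in the leukemia libraries, against 36.6, 32.0 and 0 in the controls. It differed by 5.10 (SE 1.16, limma adjusted p = 0.00648), with 6.00, 5.91 and 3.39 without control 1, 2 or 3. Hoxa3 differed by 5.42, with 6.38 without control 2 and 4.12 without control 3. Hoxa2 and Hoxa6 were low genes, with 34.0 to 70.5 and 33.7 to 44.5 normalized counts in the leukemia libraries and at most 2.53 in any control, and differed by 4.60 and 4.67 (5.28 for Hoxa6 without control 1). Mira (Entrez 100736249, chromosome 6, 52214491 to 52215288), a noncoding RNA gene inside the Hoxa cluster, had 1350, 1100, 1015 and 985 in the leukemia libraries, against 35.4, 37.7 and 5.19 in the controls (5.75, SE 0.60, limma adjusted p = 0.000164; 4.88 without control 3). The sources used here do not say if counting used strand, so reads of Mira and of overlapping Hoxa transcripts may not be fully separated.

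Meis1, the cofactor that binds DNA with Hox proteins, had 2097, 1957, 1847 and 1392 normalized counts in the leukemia libraries, against 114, 150 and 10.4 in controls 1, 2 and 3. All leukemia values lay above all control values (4.96, SE 0.81, limma adjusted p = 0.00129; 5.64 without control 2 and 3.78 without control 3). Among the other cofactor genes, Pbx3 (1.17) and Pbx4 (2.0, or 3.42 with quantile normalization) rose and Pbx2 fell by 0.90. Hoxb4, a stem cell gene of the Hoxb cluster, was at most 1.89 normalized counts in any leukemia library, against 89.6, 129 and 55.8 in the controls (-5.57, limma adjusted p = 5.86e-05; -4.15 with quantile normalization). The list was therefore split by gene, with Hoxa genes, Meis1, Pbx3 and Pbx4 higher and Pbx2 and Hoxb4 lower.

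**Figure D2:**
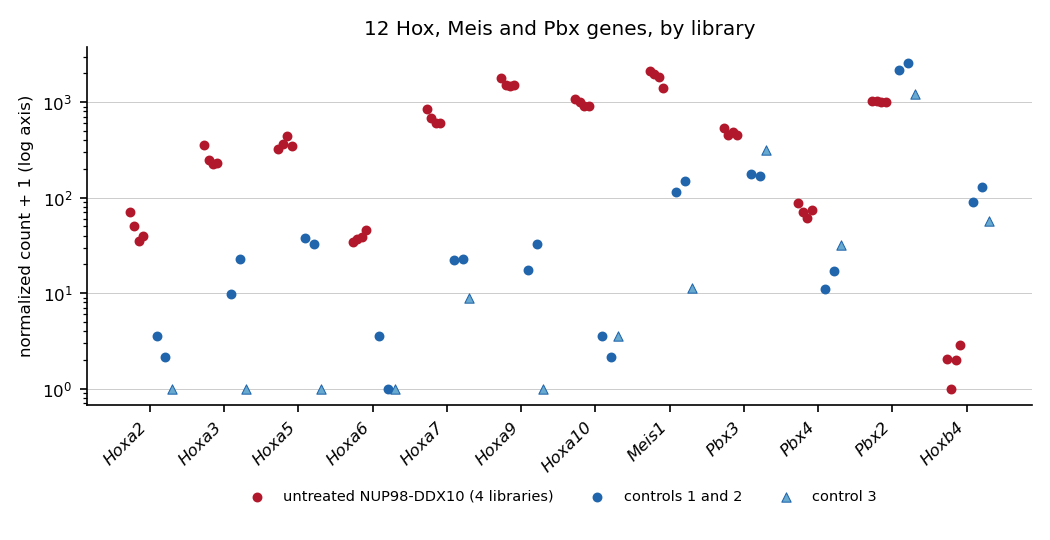
Normalized counts plus 1 (log axis) of 12 Hox, Meis and Pbx genes, with 1 point per library: red circles are the 4 untreated NUP98-DDX10 libraries, dark blue circles controls 1 and 2, and light blue triangles control 3. The red points lie above every control point for the 10 genes on the left and below every control point for Pbx2 and Hoxb4.

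Outside the Hox genes, several genes were far higher in all 4 leukemia libraries than in any of the 3 controls. Igf2bp3, an RNA-binding protein gene of fetal tissues and leukemias, had 3197, 3439, 3220 and 3090 normalized counts in the leukemia libraries, against 45.4, 35.4 and 28.6 in the controls (6.46, SE 0.16, limma adjusted p = 1.71e-06). Angptl2, which encodes a secreted angiopoietin-like protein, had 1821, 1316, 1396 and 1517 in the leukemia libraries, against 30.3, 27.4 and 23.4 in the controls (5.75, SE 0.17, limma adjusted p = 1.85e-06). Hpgd, which encodes the enzyme that inactivates prostaglandins, had 15990, 15840, 17770 and 14860 in the leukemia libraries, against 377, 402 and 218 in the controls (5.64, SE 0.21, limma adjusted p = 4.12e-06). In each of these the 3 controls lay close together, so the difference did not rest on control 3.

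Gpnmb, a transmembrane glycoprotein gene of macrophages, was higher by 6.16 (SE 0.25, limma adjusted p = 4.55e-06), and Gpx3, a secreted glutathione peroxidase gene, by 4.48 (SE 0.18, limma adjusted p = 4.54e-06). Slc4a8, a bicarbonate transporter gene, rose by 5.43, and Sgip1, an endocytosis adaptor gene, by 5.32 (4.63 without control 3). Stag3, which encodes the meiotic cohesin subunit, rose by 4.71, with 5.4 without control 2, the control in which it was highest. S1pr3, a receptor for sphingosine 1-phosphate, rose by 4.55, with 5.14 without control 2 and 3.46 without control 3. The 20 largest rises were taken among called genes with a plain gene symbol, no overlap and a mean above the median of genes kept (451.6). Several Hoxa genes above rose further but had a lower mean. The smaller of these 20 rises included Nt5dc2 (3.51), the RAS regulators Rasa4 (3.45) and Rasgrf2 (3.35), and the small GTPase gene Rab7b (3.39). The granule protease gene Ctsg, described below, was the smallest of them (3.30).

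Of 34 stem and progenitor cell genes, 27 were tested, and 7 rose (25.9%) and 11 fell (40.7%). Without control 3, 16 fell. Over all genes tested 26.1% rose and 33.1% fell, so a split in both directions is not particular to this list. Below 10 normalized counts in all 4 leukemia libraries were 5 of the 27, which passed the filter only through the controls, so the count of falls is a description. Cd34, a surface marker of progenitors, had 9418, 8889, 9435 and 7225 normalized counts in the leukemia libraries, against 770, 906 and 10.4 in controls 1, 2 and 3. The groups did not overlap, but control 3 lay far below the other controls (5.44, SE 1.39, limma adjusted p = 0.0108; 6.42, 6.54 and 3.38 without control 1, 2 or 3). Flt3, a growth factor receptor gene of progenitors, had 1760, 3093, 2143 and 2700 in the leukemia libraries, against 592, 576 and 122 in the controls (2.77, SE 0.54, limma adjusted p = 0.00305; 2.02 without control 3). Myb, which encodes a transcription factor of progenitors, was higher by 1.58 (limma adjusted p = 0.0462), but the call was lost without any 1 of the leukemia libraries and the difference was 0.72 without control 3. Runx1 and Etv6, transcription factors of blood formation, rose by 0.75 and 1.20. The stem cell receptor gene Kit differed by 0.44 (limma adjusted p = 0.565). Among the genes of the list that fell, Hlf, a stem cell transcription factor gene, fell by 4.46 (by 3.79 without control 2 and by 5.57 without control 3), Ly6a by 5.25 (by 4.42 without control 3), and Tal1, a regulator of stem and red cells, by 8.79 (by 8.0 without control 3). Slamf1, which encodes CD150, had 0 in all 4 leukemia libraries, against 54.3, 70.9 and 380 in the controls, at least 54.8-fold lower, or 20.3-fold without control 3.

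Among primary granule genes, 5 of 12 rose (41.7%) and 4 fell (33.3%), against 26.1% and 33.1% of all genes. The summed list took 1.15%, 0.965%, 1.06% and 1.11% of the normalized counts in the leukemia libraries, against 0.499%, 0.480% and 0.306% in the controls. Prtn3, which encodes proteinase 3, had 27310, 20360, 17440 and 25160 normalized counts in the leukemia libraries, against 2834, 3119 and 748 in the controls (3.57, SE 0.48, limma adjusted p = 0.00049; 2.90 without control 3). Ctsg, which encodes cathepsin G, had 19300, 19180, 19460 and 20490 in the leukemia libraries, against 3365, 3433 and 683 in the controls (3.30, SE 0.53, limma adjusted p = 0.00117; 2.53 without control 3). The chaperone gene Calr and the protease inhibitor gene Cst7 rose by 1.69 and 1.84. Mpo, the peroxidase of primary granules, differed by 2.03 (limma adjusted p = 0.0345), a call lost without any 1 leukemia library, with a value of 1.04 without control 3. Elane, the neutrophil elastase gene, differed by 0.56 (limma adjusted p = 0.435). The granule proteoglycan gene Srgn fell by 0.93, the protease inhibitor gene Serpinb1a by 0.88, and Nkg7 (-3.32) and Rnase2a (-3.90) fell further.

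Genes of later granules and mature neutrophils were lower in the leukemia libraries: 25 of 35 tested fell and none rose, with a median log2 difference of -3.24, and 35 of 35 fell without control 3. Leaving out control 1 or control 2 left 21 falls each. The summed list took 1.13%, 1.37%, 1.37% and 1.54% of the normalized counts in the leukemia libraries, against 19.2%, 20.6% and 2.70% in controls 1, 2 and 3. Control 3 thus lay between the leukemia libraries and the other controls. In bulk samples, fewer cells of a type and less RNA of its genes per cell cannot be told apart.

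Ltf, which encodes the secondary granule protein lactoferrin (chromosome 9), had 4416, 6734, 5681 and 6055 normalized counts in the leukemia libraries, against 215500, 242600 and 24750 in controls 1, 2 and 3. It fell by 4.27 (SE 0.74, limma adjusted p = 0.00172), with -3.69 without control 2 and -5.34 without control 3. Ngp, the neutrophilic granule protein gene, had 17050, 18750, 17500 and 19810 in the leukemia libraries, against 605400, 734300 and 81760 in the controls (-4.18, SE 0.70, limma adjusted p = 0.00151; -5.19 without control 3 and -2.85 with quantile normalization). Camp, which encodes the antimicrobial peptide cathelicidin, had 1493, 2076, 2228 and 2072 in the leukemia libraries, against 66230, 75980 and 12770 in the controls (-4.36, SE 0.57, limma adjusted p = 0.000461; -5.19 without control 3). In all 3 genes every leukemia library was below control 3, the lowest control. The calcium-binding protein genes S100a8 (-5.06) and S100a9 (-4.94) fell, with -6.42 and -6.11 without control 3 (S100a8 -4.37 and -4.40 without control 1 or 2 and -3.89 with quantile normalization; S100a9 -4.32 without control 2 and -4.23 with quantile normalization). Ly6g, the surface marker of mouse neutrophils, had 108, 115, 112 and 106 in the leukemia libraries, against 14990, 18600 and 1131 in the controls (-5.94, limma adjusted p = 0.000795; -5.21 without control 2 and -7.23 without control 3). Cebpe, which encodes the C/EBP factor of late granule genes, fell by 2.70 (by 3.57 without control 3). Mmp8, a granule collagenase gene, shows what control 3 does to a call: it had 3461, 4281, 3366 and 3942 in the leukemia libraries and 85860, 92390 and 2429 in the controls. Its difference of -2.84 missed the threshold (limma adjusted p = 0.0674), while without control 3 it was -4.57 (limma adjusted p = 1.56e-08). Cxcr2, the chemokine receptor of mature neutrophils, was called with all 7 libraries (-3.73, limma adjusted p = 0.0252) and lost without control 1 (-2.90), control 2 (-2.83) or any 1 leukemia library, and was -5.47 without control 3.

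Of 30 monocyte and macrophage genes tested, 10 were higher (33.3%) and 13 lower (43.3%), against 26.1% and 33.1% of all genes. Without control 3 these were 11 and 15 genes. Csf1r, the receptor for the macrophage growth factor, had 15460, 14230, 13350 and 14680 normalized counts in the leukemia libraries, against 4697, 4346 and 3679 in the controls (1.77, SE 0.13, limma adjusted p = 3.18e-05). Ly6c2, a surface antigen of classical monocytes, had 56290, 42210, 40450 and 51930 in the leukemia libraries, against 22120, 18750 and 8264 in the controls (1.65, SE 0.34, limma adjusted p = 0.0042). No leukemia library overlapped a control in either gene. The scavenger receptor gene Cd163 rose by 2.72, the lipopolysaccharide receptor gene Cd14 by 2.03, the macrophage antigen gene Adgre1 (F4/80) by 1.55, the chemokine receptor gene Cx3cr1 by 0.76, and the monocyte transcription factors Klf4 and Irf8 by 1.10 and 0.94. Among the genes of the list that fell, Apoe, a lipid carrier gene, had 26.6, 37.2, 40.8 and 40.7 in the leukemia libraries, against 1650, 1882 and 2582 in the controls (-5.77, SE 0.22, limma adjusted p = 4.16e-06), and the adhesion gene Vcam1, the peptidase gene Ace and the matrix gene Vcan fell (-6.55, -5.14 and -2.78).

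Antigen presentation genes were low. Of 11 MHC class II genes tested, 9 fell and none rose, with a median of -4.96. H2-Aa, a class II chain, had 530, 552, 351 and 411 normalized counts in the leukemia libraries, against 10090, 12160 and 75640 in controls 1, 2 and 3 (-5.53, SE 0.64, limma adjusted p = 0.00026; -4.61 without control 3). Cd74, the invariant chain, had 1807, 1572, 1098 and 1487 in the leukemia libraries, against 24920, 29730 and 170800 in the controls (-5.10, SE 0.62, limma adjusted p = 0.000317; -4.21 without control 3). Here control 3 was the control farthest above the leukemia libraries, and controls 1 and 2 were still higher than all 4 of them. Ciita, the master regulator of class II genes, fell by 6.01 (-5.04 without control 3). H2-DMa and H2-DMb1, which load peptides onto class II molecules, differed by 1.10 and 0.73 and were not called (limma adjusted p = 0.0621 and 0.117), but were higher without control 3 (1.73 and 1.23, limma adjusted p = 5.42e-07 and 2.3e-05). Of 15 dendritic cell genes tested 12 fell and none rose. Of the 15 tested, 6 were kept only through the controls, which makes the count a description. Siglech, a marker of plasmacytoid dendritic cells, fell by 3.12 (by 2.52 without control 1 and by 4.00 without control 3).

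Most tested markers of other blood lineages were lower in the leukemia libraries. Among B cell and plasma cell genes 21 of 24 tested fell and none rose (median -7.82), among T and NK cell genes 25 of 26 fell (median -7.20, or -6.86 with genes at 0 set to the floor of 3 reads), and among erythroid genes 23 of 26 fell (median -7.28, or -7.06 at the floor). Among basophil, mast cell and eosinophil genes 19 of 21 fell (median -6.04, or -5.37 at the floor), and among megakaryocyte and platelet genes 10 of 12 (median -2.47; 6 fell with quantile normalization). Below 10 normalized counts in all 4 leukemia libraries, and so kept only through the controls, were 13, 20, 17, 16 and 6 of these tested genes in the same order of lists, which makes the counts a description. Summed B cell and plasma cell genes took 0.0894% to 0.0983% of normalized counts in the leukemia libraries, against 0.331%, 0.402% and 2.11% in controls 1, 2 and 3. Erythroid genes took 0.0189% to 0.0236%, against 0.0924%, 0.132% and 1.01%. T and NK cell genes took 0.00965% to 0.0177%, against 0.0560%, 0.0596% and 0.142%. Control 3 was the highest control in these 3 lists. Basophil, mast cell and eosinophil genes took 0.00561% to 0.00684% in the leukemia libraries, against 0.0812%, 0.112% and 0.0533% in the controls. The part of these cell types in the differences of other genes was not tested.

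Single markers show the gap. Jchain, the joining chain of secreted antibodies, had 3.06, 1.16, 3.88 and 1.89 normalized counts in the leukemia libraries, against 15120, 27060 and 162200 in the controls, and at -13.57 (limma adjusted p = 1.2e-05; -14.28 without control 1 and -12.56 without control 3) it was the largest named fall. Vpreb3, a surrogate light chain gene of B cell precursors, had 0.946 to 2.91 in the leukemia libraries, against 2905, 2918 and 2839 in the controls (-10.08, SE 0.30, limma adjusted p = 2.01e-06). It was even across the 3 controls, unlike Jchain. Pax5, the B cell identity factor, had 0 in all 4 leukemia libraries, against 505, 575 and 3304 in the controls, and was at least 475-fold lower (176-fold without control 3). Slc4a1, the anion exchanger of red cells, had 5.11, 2.33, 0 and 3.79 in the leukemia libraries, against 3430, 5143 and 47250 in the controls (-11.55, limma adjusted p = 6.07e-05; -12.28 without control 1 and -10.39 without control 3). Prss34, a basophil protease gene, had 0 in the leukemia libraries, against 1732, 3659 and 1376 in the controls, at least 733-fold lower. Lef1, a T cell transcription factor gene, had 0 in the leukemia libraries, against 579, 586 and 713 in the controls, at least 204-fold lower. The floor behind these bounds is 3 reads per library and covers counting error only. The alpha and beta haemoglobin genes of the list are near-identical copies that share reads, and they were at or near 0 in all 7 libraries. The exception in the T and NK cell list was Cd28, a costimulatory receptor gene, with 2462, 1191, 1940 and 1572 in the leukemia libraries, against 244, 246 and 650 in the controls (2.35, SE 0.39, limma adjusted p = 0.00139).

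**Figure D3:**
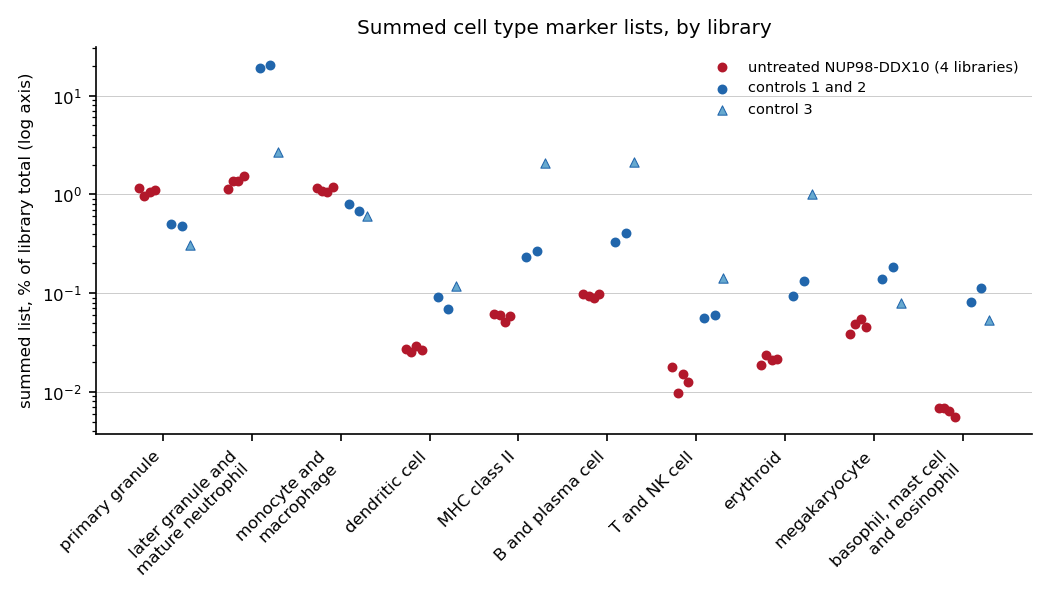
Summed normalized counts of 10 marker lists as a percent of the library total (log axis), with 1 point per library: red circles are the 4 untreated NUP98-DDX10 libraries, dark blue circles controls 1 and 2, and light blue triangles control 3. Red points lie above the controls for primary granule and monocyte lists and below them for the others, and control 3 departs from controls 1 and 2 downward for neutrophil genes (2.70%) and upward for B cell and plasma cell (2.11%) and erythroid genes (1.01%).

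Of 19 G1 phase genes tested, 7 were higher (36.8%) and 5 lower (26.3%), against 26.1% and 33.1% of all genes. Without control 3 these were 9 and 7 genes. Cdk6 (Entrez 12571, chromosome 5, 3341004 to 3531008) had 15390, 14650, 12660 and 12970 normalized counts in the leukemia libraries, against 3779, 3650 and 1236 in controls 1, 2 and 3. All leukemia values were above all control values, and the log2 difference was 2.43 (SE 0.37, limma adjusted p = 0.000961; 1.90 without control 3). Cdk4, which encodes the kinase most like CDK6, had 8088, 7744, 7651 and 8188 in the leukemia libraries, against 2150, 2000 and 2099 in the controls (1.93, SE 0.09, limma adjusted p = 8.46e-06). The spread inside both groups was small for Cdk4, and leaving out a control gave 1.90 to 1.95. The D cyclin gene Ccnd1 rose by 1.96, while Ccnd2 and Ccnd3 differed by 0.31 and -0.35 (limma adjusted p = 0.179 and 0.347). E2f1, an activator of S phase genes, rose by 1.67, and the CDK inhibitor gene Cdkn1a by 1.55. Lower were the inhibitor gene Cdkn1b (-1.20), Rb1 itself (-1.16), E2f2 (-1.07), Cdkn2d (-0.53) and the RB-related Rbl2 (-0.48). Cdkn2a, at 12.6 to 27.4 in the leukemia libraries and 3.79 to 11.7 in the controls, was called at 1.33 (limma adjusted p = 0.0282) and lost without control 1 (0.97) or control 2 (1.33) and without day 3 library 1, day 5 library 1 or day 5 library 3, while with quantile normalization it was 3.23 (limma adjusted p = 0.000598).

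DNA replication genes were higher: 32 of 41 tested rose and 3 fell, with a median of 0.71, against the median of -0.10 over all genes (29 rose without control 1 or control 2, and 34 without control 3). None of the 41 was below 10 normalized counts in all 4 leukemia libraries. Ung, which removes uracil from DNA, had 668, 615, 641 and 690 in the leukemia libraries, against 150, 126 and 129 in the controls (2.27, SE 0.12, limma adjusted p = 1.2e-05). The replication helicase genes Mcm3, Mcm5 and Mcm6 rose by 1.21, 1.27 and 1.25, and the helicase partner Gins2 by 1.83. The 3 that fell were Gins4 (-0.58), the clamp loader gene Rfc4 (-0.43) and Rrm2, a subunit of the enzyme that makes deoxynucleotides (-0.35). The calls of Rfc4 and Rrm2 were lost without control 1 (-0.41 and -0.40), and of the list 1 gene fell in that setting, without day 3 library 1, day 5 library 1 or day 5 library 3, and with quantile normalization. Mitosis genes were mixed, with 10 of 32 higher (31.2%) and 6 lower (18.8%), against 26.1% and 33.1% of all genes. Without control 3 these were 13 and 8 genes. The mitotic regulators Cdc20, Plk1 and Aurkb rose by 1.36, 1.31 and 1.26 and Cdk1 by 0.66, while the kinetochore genes Cenpf (-1.05) and Cenpe (-1.03) and the proliferation marker Mki67 (-0.78) fell.

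Of 36 MYC target and ribosome biogenesis genes, 22 rose and 3 fell (24 and 5 without control 3), with a median of 0.79. Myc itself had 4270, 3365, 3306 and 3446 normalized counts in the leukemia libraries, against 1342, 1249 and 1280 in the controls (1.47, SE 0.12, limma adjusted p = 4.99e-05). Srm, which makes spermidine, had 3365, 2818, 2607 and 3187 in the leukemia libraries, against 545, 615 and 491 in the controls (2.44, SE 0.13, limma adjusted p = 1.19e-05). The groups did not overlap in either gene, and within the leukemia group Myc was highest in the day 3 library. The ribosome assembly gene Nop16 and the DNA repair endonuclease gene Apex1 rose by 1.93 and 1.71. The 3 that fell were the nucleolar protein genes Nop58 (-0.91) and Ncl (-0.66) and Odc1, the first enzyme of polyamine synthesis (-1.14). Odc1 was highest in control 3, and its call was lost without day 3 library 1, day 5 library 1 or day 5 library 3. Cytosolic ribosomal protein genes showed no common direction, with 10 of 52 higher and 11 lower. These counts rested on the libraries used and on the scaling. Without control 3, 24 were higher and 11 lower. Without day 3 library 1 or day 5 library 1, 7 were lower. With quantile normalization 16 were higher and 5 lower. Genes of this family share reads with pseudogenes.

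Interferon response genes were lower, with 27 of 34 tested falling and 1 rising, and a median of -1.40 (25 falls and no rise without control 1 or control 2, and 30 falls without control 3). Ddx58, which encodes the RNA sensor RIG-I, had 136, 137, 154 and 163 normalized counts in the leukemia libraries, against 2046, 1787 and 2266 in the controls (-3.77, SE 0.13, limma adjusted p = 3.28e-06). Rsad2, an antiviral enzyme gene, had 59.3 to 92.9 in the leukemia libraries, against 2422, 1537 and 6306 in the controls (-5.27, SE 0.44, limma adjusted p = 5.71e-05). In both genes the groups did not overlap, and for Rsad2 control 3 was the highest library. Rtp4, Isg15 and Ifit1, all interferon-induced, fell (-4.20, -4.18 and -3.47, with Isg15 at -3.58 without control 3), as did the transcription factor gene Irf7 (-1.61). Gbp3, a guanylate-binding protein gene, was the 1 gene higher (0.58, limma adjusted p = 0.0276), and its call was lost without control 1 (0.57), control 2 (0.39) or any 1 of the day 5 leukemia libraries. Interferon genes summed to 0.131% to 0.151% of normalized counts in the leukemia libraries, against 0.281% to 0.369% in the controls.

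Cytokine receptor genes had 10 of 33 higher (30.3%) and 6 lower (18.2%), against 26.1% and 33.1% of all genes. Without control 3 these were 11 and 11 genes. Il3ra, the interleukin 3 receptor alpha chain, had 2433, 1813, 1606 and 1864 normalized counts in the leukemia libraries, against 273, 306 and 180 in the controls (2.94, SE 0.21, limma adjusted p = 3.35e-05). Il1r1, an interleukin 1 receptor, rose by 2.50, while Il7r, the receptor of lymphoid precursors, and Il18r1 fell (-5.89 and -6.28). Among myeloid and lymphoid transcription factor genes, 6 of 40 rose and 23 fell. Cebpa, the C/EBP factor of early myeloid cells, rose by 1.28 (0.75 without control 3, with the call lost without day 5 library 1 or 3), and Runx3 by 1.0. Zeb1, a zinc finger repressor gene, had 9.19, 11.6, 15.5 and 8.52 in the leukemia libraries, against 1541, 1525 and 1553 in the controls (-7.01, SE 0.23, limma adjusted p = 2.05e-06), and the repressor gene Bcl6 fell by 2.46. Spi1, which encodes the myeloid factor PU.1, differed by 0.38 (limma adjusted p = 0.358).

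The mouse genes whose counterparts form the fusions were counted apart from the constructs. Nup98 had 3079, 2698, 2260 and 2350 normalized counts in the leukemia libraries, against 2176, 2091 and 2840 in the controls (0.13 on the log2 scale, limma adjusted p = 0.485). Ddx10 was lower by 0.33 (limma adjusted p = 0.047), a call that was lost without any 1 of the 7 libraries (range -0.39 to -0.24). Kdm5a (JARID1A) and Nsd1, counterparts of the other fusion partners, were lower by 1.19 and 0.97 (limma adjusted p = 0.000376 and 0.00221).

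The same genes were read in the doxycycline groups of NUP98-DDX10, which share their untreated libraries with the comparison above, so values are given side by side with no test. Hoxa9 averaged 1581 ± 152 normalized counts untreated (SD, n = 4), 594 ± 53.2 at day 3 and 479 ± 74.9 at day 5 of doxycycline (n = 3 each), with 16.1 ± 16.0 in the controls (n = 3). Meis1 averaged 1823 ± 305 untreated, 363 ± 37.2 at day 3 and 174 ± 20.9 at day 5, with 91.2 ± 72.3 in the controls. Hpgd averaged 16110 ± 1211 untreated, 7366 ± 416 at day 3 and 3592 ± 367 at day 5, with 333 ± 100 in the controls. The day 5 means of these genes stood between the untreated and the control means. Cdk6 averaged 13920 ± 1313 untreated, 12280 ± 581 at day 3 and 7802 ± 772 at day 5, with 2889 ± 1433 in the controls. Other genes with a large difference against controls had doxycycline means near the untreated mean. Igf2bp3 averaged 3236 ± 146 untreated, 2952 ± 184 at day 3 and 2848 ± 168 at day 5, with 36.5 ± 8.49 in the controls. Stag3 averaged 1605 ± 186 untreated, 1525 ± 92.9 at day 3 and 1621 ± 72.6 at day 5, with 77.3 ± 69.8 in the controls. Gpx3 averaged 4870 ± 545 untreated, 5800 ± 1254 at day 3 and 6028 ± 608 at day 5, with 222 ± 58.4 in the controls. Genes far above the controls thus included some whose doxycycline means were near the untreated mean and some whose means were well below it.

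**Figure D4:**
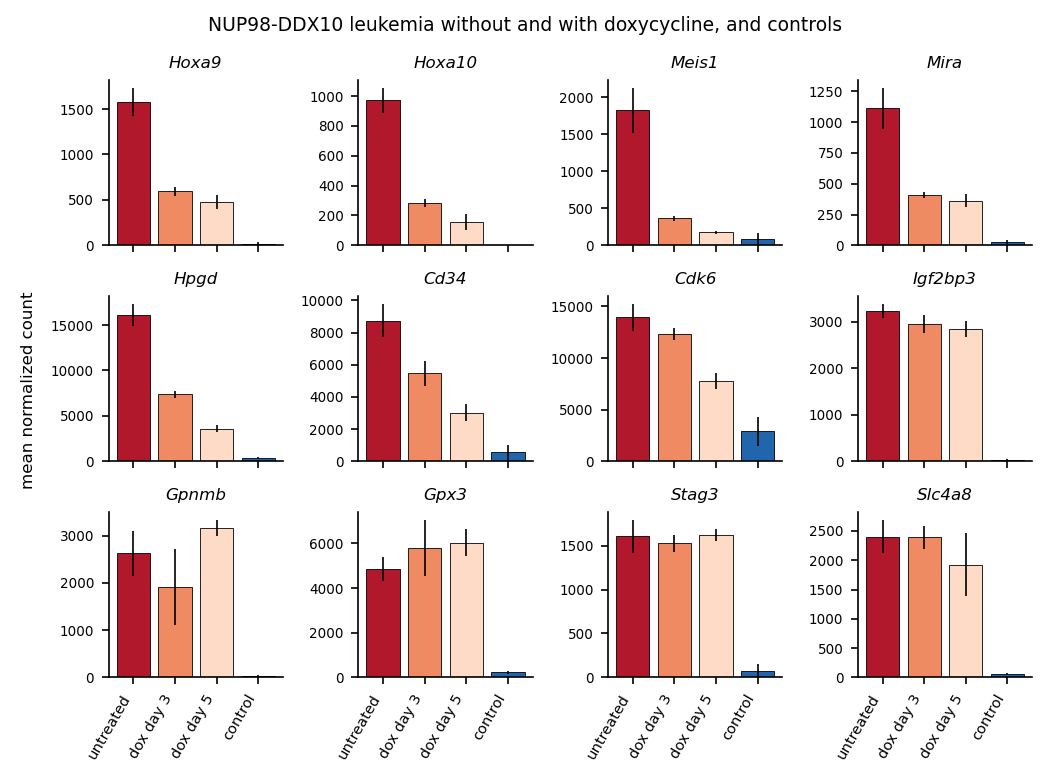
Mean normalized counts of 12 genes in NUP98-DDX10 leukemia without doxycycline (n = 4), at day 3 and day 5 of doxycycline (n = 3 each) and in controls (n = 3); bars are means, lines are SDs, and each panel has its own axis from 0. Hoxa9, Hoxa10, Meis1, Mira, Hpgd, Cd34 and Cdk6 have lower means at day 3 and lower again at day 5, each still above its control mean. The means of Igf2bp3, Gpnmb, Gpx3, Stag3 and Slc4a8 are also far above the controls at both times.

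To see where NUP98-DDX10 differed from other fusions, its 4 libraries were set against the mean of the 4 untreated NUP98-JARID1A and the 4 untreated NUP98-NSD1 libraries, leukemias of the same design whose partner is a histone demethylase or a histone methyltransferase. This comparison shares the NUP98-DDX10 libraries with the one above. Of 11757 genes tested, 2563 were higher in NUP98-DDX10 (21.8%) and 2760 lower (23.5%), together 45.3%, with at least 2-fold differences in 4.81% and 5.57%. The 4 libraries lay above all 8 others in 7.62% of genes and below all 8 in 6.79%. Hoxa9 differed by 0.15 (limma adjusted p = 0.181) and Hoxa10 by 0.20 (limma adjusted p = 0.0469). Igf2bp3 differed by -0.01 from the mean of the other fusions (limma adjusted p = 0.873), but it lay between them. It averaged 3236 ± 146 in NUP98-DDX10, 4223 ± 219 in JARID1A-fused and 2530 ± 172 in NSD1-fused leukemia. Meis1 averaged 1823 ± 305 normalized counts in NUP98-DDX10, 521 in JARID1A-fused and 1235 in NSD1-fused leukemia, with every NUP98-DDX10 library above all 8 others (1.18, limma adjusted p = 1.48e-06). Cdk6 averaged 13920 ± 1313 in NUP98-DDX10, 16520 ± 325 in JARID1A-fused and 20090 ± 1343 in NSD1-fused leukemia, with every NUP98-DDX10 library below all 8 others (-0.39, SE 0.07, limma adjusted p = 0.000484). Hpgd was higher in NUP98-DDX10 by 2.23 (limma adjusted p = 5.03e-08).

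The 6 largest rises and falls of this comparison follow, taken among called genes with a plain gene symbol. Each had a mean above the median of genes kept (440.9) and no overlap between NUP98-DDX10 and the other fusions. Genes with a lower mean, such as Hoxb3 and Hoxb4 below, were outside this choice. Fn1, the fibronectin gene, averaged 13070 ± 3351 normalized counts in NUP98-DDX10, 41.8 ± 22.2 in JARID1A-fused and 771 ± 553 in NSD1-fused leukemia (6.42, SE 0.47, limma adjusted p = 1.33e-07), and 35200 ± 11100 in the controls, against which it was lower by 1.42. The GTPase-activating protein gene Arhgap21 (4.13), the Polycomb group gene Scmh1 (3.46), the transporter gene Slc43a3 (2.71), Bmyc (2.51) and Klf4 (2.25) were next. In these 5 genes the NUP98-DDX10 mean was closer to the NUP98-NSD1 mean than to the NUP98-JARID1A mean. For example, Scmh1 averaged 1305 ± 159 in NUP98-DDX10, 18.4 ± 8.87 in JARID1A-fused and 781 ± 65.1 in NSD1-fused leukemia. Largest among the falls was Tcf7, a transcription factor gene of T cells and progenitors, at 1.12 ± 1.65 in NUP98-DDX10, 19.8 ± 5.89 in JARID1A-fused and 5988 ± 1078 in NSD1-fused leukemia (-7.64, limma adjusted p = 8.78e-10). Mn1, a coregulator gene of myeloid leukemias, averaged 3.62 ± 0.893 in NUP98-DDX10, 1032 ± 292 in JARID1A-fused and 512 ± 63.5 in NSD1-fused leukemia (-7.29, SE 0.17, limma adjusted p = 4.93e-13), with 5.99 ± 5.19 in the controls. Unlike Tcf7, Mn1 was high in both other fusions. Bahcc1 (-4.19), the endothelial receptor gene Eng (-4.03), the apelin receptor gene Aplnr (-3.27) and the protease inhibitor gene Stfa3 (-2.81) completed the 6 falls. The other fusions differed widely in these genes. In NUP98-DDX10, JARID1A-fused and NSD1-fused leukemia in turn, Bahcc1 averaged 27.7, 3559 and 79.2, and Eng 368, 1881 and 19110. In the same order Aplnr averaged 42, 2080 and 75.6, and Stfa3 535, 12120 and 1215.

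Hoxb genes and MHC class II genes also separated the fusions. Of 22 Hox, Meis and Pbx genes tested in this comparison, 4 were higher in NUP98-DDX10 and 12 lower, and genes near 0 in NUP98-DDX10, such as those below, passed the filter only through the other fusions. Hoxb3 averaged 0.26 normalized counts in NUP98-DDX10, 13.6 in JARID1A-fused and 270 in NSD1-fused leukemia (-5.70), and Hoxb4 averaged 0.97 in NUP98-DDX10, 44.1 in JARID1A-fused and 205 in NSD1-fused leukemia (-5.70). Hoxb2 was at 0 in each library of both NUP98-DDX10 and NUP98-JARID1A leukemia and at 1068 ± 99.4 in NUP98-NSD1. Of 10 MHC class II genes tested, 10 were higher in NUP98-DDX10, with a median of 1.48. H2-Aa averaged 461 in NUP98-DDX10, 44.9 in JARID1A-fused and 220 in NSD1-fused leukemia (2.32, limma adjusted p = 8.03e-05), with 32630 in the controls. Of 35 neutrophil genes, 1 was higher in NUP98-DDX10 than in the other fusions and 23 were lower; of 33 interferon genes, 2 were higher and 21 lower; and of 41 DNA replication genes, 19 were higher and 3 lower. Of 32 cytokine receptor genes 15 were higher and 5 lower, and of 30 monocyte and macrophage genes 14 were higher and 8 lower. All list counts against the other fusions have to be read against the shares over all genes tested, 21.8% higher and 23.5% lower. The rises in the Hox, Meis and Pbx list and the falls in the monocyte and macrophage list were near these shares.

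**Figure D5:**
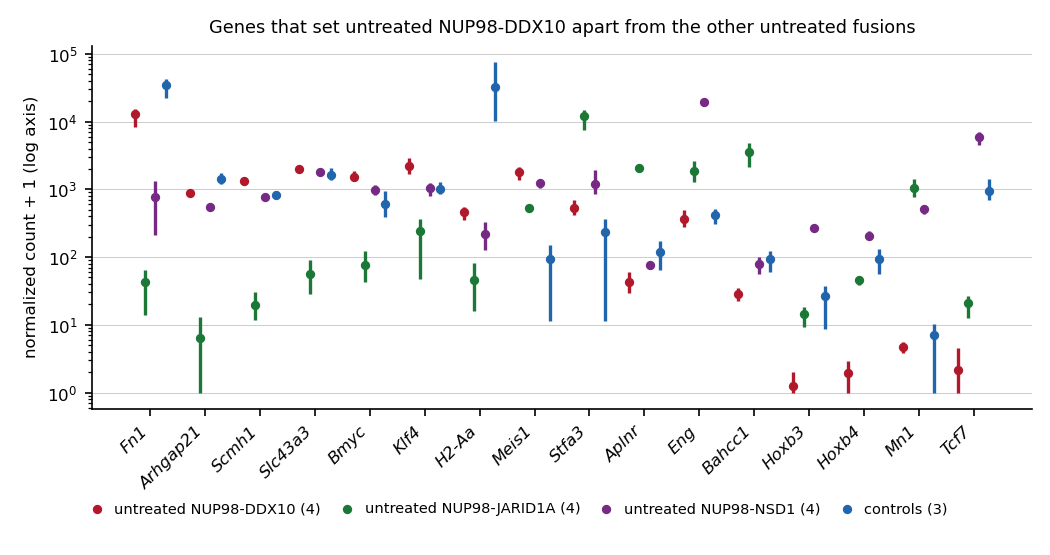
Normalized counts plus 1 (log axis) of 16 genes in untreated NUP98-DDX10 (red), NUP98-JARID1A (green) and NUP98-NSD1 (purple) leukemia, 4 libraries each, and in controls (blue, 3 libraries); points are group means and lines span the lowest to the highest library. Red lies above green and purple for the 8 genes on the left, from Fn1 to Meis1, and below them for the 8 on the right, from Stfa3 to Tcf7.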

How the data were processed

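RNA was measured in sorted bone marrow cells. Per the submitters' processing notes the authors used FastQC, STAR, SAMtools, featureCounts and DESeq2 with builds GRCm38 and mm10; versions and the use of strand in counting are not given in the sources used here. The deposited signal is the authors' normalized count, that is reads over a size factor for each library. All values came out as whole reads within 0.01, so reads could be recovered. The table holds 24454 genes by Entrez identifier and 8 constructs; the GRCm38 annotation named 24376 genes and 78 stayed unnamed. No further per-sample columns were left out, and the 2 chromatin immunoprecipitation samples were not analysed here.

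The test was limma 3.58.1 (R 4.3.3) with a mean-variance trend on log2(value + 1) of the deposited values, a scale that understates changes of low genes. A gene was kept if 3 or more libraries reached 10 normalized counts, and Benjamini-Hochberg adjusted p under 0.05 over all genes tested was the threshold; "rose" and "fell" mean past it. The comparison with controls used 7 libraries (7.79 degrees of freedom), that with the other fusions 12 (14.2). All differences are log2, untreated NUP98-DDX10 minus the group it is set against, and ± is the SD. Alternatives were other pseudocounts, filters and scalings, array weights, a replicate block, each library left out, a fit of all 33 RNA libraries, and edgeR 4.0.16 and DESeq2 1.42.0 on the recovered reads. The fit was also run on simulated counts. These had few changed genes and no outlying control, so that run cannot show how the fit behaves with control 3.

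The comparison, its members and the 27 gene lists were chosen with earlier results of these data known. Named genes were the 20 largest rises and falls without overlap between groups and with a mean above the median of genes kept (451.6, or 440.9 for the other fusions), up to 4 members per list by adjusted p with members against their list's direction, Cdk6, the fusion genes, the Hox list, constructs, the 10 genes furthest up and down in control 3, and the 6 largest rises and falls against the other fusions. Other list members and Ptprc were named after their values were seen. Floors of 3 reads cover counting error only, since reads carry no molecular identifiers. Figures were drawn with matplotlib 3.10.9 in Python 3.11.15. Some items that the naming rule would take are not reported here.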

Additional observations from a re-analysis of the deposited data

Results flagged for a closer look

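Of 225 named genes tested for 1 library apart from the other 3 of the untreated NUP98-DDX10 group, 17 were flagged. The value given is the gap of the apart library to its nearest neighbour as a share of the group's range. Chance flags about 1 in 20 where values vary smoothly. That rate does not hold for flagged genes with at most a single read per library, where 1 read alone sets the value. Whether 17 flags are more than chance gives was therefore not tested. In 9 genes it was the library titled day 3, the 1 of the 4 with that title. In 5 of these the library was high: Hoxa9 at 1808 against 1483 to 1521 normalized counts (0.873), Myc at 4270 against 3306 to 3446 (0.838), Runx1 at 6490 against 4385 to 4663 (0.843), Nfix at 1288 against 967 to 1013 (0.838) and Bbc3 at 93.9 against 71.9 to 74.7 (0.856). Chac1 was low in it, at 2.04 against 8.14 to 9.71 (0.874). Ms4a1, Pou2af1 and Prg2 had a single read in it and none in the others (1.0 each).

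Single reads in 1 day 5 library also set apart Car1, Ear1, Fcmr, Kdr and Tal1 (1.0 each), and no read in 1 library set apart Ikzf2 (0.863). Aqp1 was at 6.62 in day 5 library 3 against 1.94 to 2.33 (0.871), and Rasgrf2 at 1123 in day 5 library 2 against 1035 to 1048 (0.851). All of these lay on the same side of every control as the other leukemia libraries.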

How the results depend on the processing

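Among values of named genes under the alternatives, 3967 kept direction and side of the threshold, 140 kept direction but lost the call, 14 gained one and 6 turned round. The 6 belong to Cstdc4 and Stfa2l1, neutrophil genes that were low in control 3 and were not called with all 7 libraries (log2 differences 1.06 and -0.72, limma adjusted p = 0.533 and 0.674). Leaving out 1 library moved Cstdc4 over -0.96 to 2.09 and Stfa2l1 over -2.77 to 0.38. Cstdc4 was -0.96 without control 3, -0.86 with array weights, -0.22 with edgeR and -0.28 with DESeq2. Stfa2l1 was 0.22 without control 1 and 0.38 without control 2. Counts of genes past the threshold stayed within 1.5 times of the reported ones in every alternative run: 2596 to 4096 higher and 3436 to 4907 lower with 1 library left out, 4447 and 5257 with array weights, where control 3 got a weight of 0.0617, 3528 and 3659 with TMM, 3373 and 3848 with edgeR, and 3386 and 4119 with DESeq2. Against the other fusions, leaving out 1 NUP98-DDX10 library gave 2101 to 2409 higher and 2298 to 2543 lower. Quantile normalization moved 160 of 467 called genes of the lists and rules upward by over 1.5 times and none downward, and it turned the sign of 1, the dendritic cell gene Xcr1 (-1.60, or 0.15 with quantile normalization and no longer called). DESeq2 gave no adjusted p for 67 genes, 6 of them MHC class II genes. Title numbers as a replicate block gave 2942 higher and 3807 lower. Deviations of same-numbered libraries from their group means correlated at -0.12 to 0.002, and those of differently numbered libraries at -0.06 to 0.11. With so few libraries in a group, this cannot show whether the numbers pair the libraries. Depth limits genes under about 10 normalized counts, and what the controls carry limits every comparison with them. Why single results changed with the setting was not tested.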

Other observations

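Stress and p53 genes were split, as were all genes tested (26.1% higher and 33.1% lower). The shares were 39.1% and 30.4% for ATF4 stress response genes, and 36.4% and 45.5% for p53 target and apoptosis genes. Of 23 ATF4 stress response genes tested 9 rose and 7 fell: Shmt2, Psat1 and Pycr1, which make glycine, serine and proline, rose by 2.08, 1.88 and 2.33, while Asns, which makes asparagine, had 22.5, 12.8, 19.4 and 40.7 normalized counts in the leukemia libraries, against 424, 537 and 776 in the controls (-4.62, SE 0.39, limma adjusted p = 6.02e-05), and Ddit3, which encodes CHOP, fell by 2.21. Of 22 p53 target and apoptosis genes 8 rose (5 without control 2 or day 5 library 1) and 10 fell. Trp53 and Bax rose by 1.20 and 1.69, and Gadd45a, Trp53inp1, Mcl1 and Mdm2 fell (-5.0, -3.40, -1.70 and -1.33). Of 25 immediate early and heat shock genes 2 rose and 12 fell (1 rose without control 1 or control 2), with Egr1 lower by 4.64, Btg2 by 2.57 and Hspa8 higher by 0.87. Of 23 glycolysis genes 7 rose and 3 fell, and 12 and 7 without control 3; Tpi1 and Pfkl rose by 1.46 and 1.40 and Ldhb fell by 3.33. Of 8 endothelial and stromal genes 1 rose (12.5%) and 3 fell (37.5%), and the share that fell was near the 33.1% of all genes. Without control 3, 2 rose. The gene that rose with all 7 libraries was the growth factor receptor gene Pdgfrb (2.88). Of the 4 genes whose human counterparts form the fusions, 3 fell and none rose.

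Of 5 sex-linked genes tested 4 fell. Xist had 7.15, 4.65, 1.94 and 1.89 normalized counts in the leukemia libraries, against 140, 4243 and 4848 in controls 1, 2 and 3 (-8.33, limma adjusted p = 0.000672; -9.99 without control 1, -7.54 without control 2 and -7.44 without control 3). The Y-linked gene Ddx3y was present in every library, with 181, 270, 364 and 326 in the leukemia libraries and 1098, 706 and 833 in the controls. The 7 libraries therefore differed in sex-linked transcripts along with the fusion, and the part of this in other differences was not tested.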
